A study of Homo sapiens with 2 samples.

Results

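The urokinase-plasminogen and tissue factor system is the set of extracellular proteases, receptors and protease inhibitors with which cells dissolve fibrin and start clotting. It was taken here as 9 genes by name: the activators PLAU, PLAT and F3, the receptors PLAUR and S100A10, and the inhibitors SERPINE2, SERPINB2, TFPI and TFPI2. A member entered if a probe set of the array carried its symbol alone, which held for 8 of the 9, among 18417 genes in all. SERPINB2 was not analysed here. The 8 measured members comprised 5 activators and receptors and 3 inhibitors, and each had 1 probe set. The data were 2 Affymetrix whole-transcript arrays of RNA immunoprecipitated with anti-Argonaute2 (Ago2) antibody from A549, a human cell line established from a lung adenocarcinoma. Ago2 is the protein that holds microRNAs on their target mRNAs. The control cells were transfected with an empty vector and the treated cells overexpressed miR-130b, with 1 array each and no untransfected cells, RNA from before the precipitation or precipitate without the Ago2 antibody analysed here. The labels name neither the vector nor the time after transfection, and they do not say whether the cells were a clone or a pool. Their extraction text speaks of tissue, although both samples are of this line.

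In this system urokinase (PLAU), a secreted serine protease, binds its membrane-anchored receptor (PLAUR) and cuts plasminogen into plasmin, which digests fibrin and other matrix proteins. Tissue-type activator (PLAT) cuts plasminogen on fibrin, and S100A10, in complex with annexin A2, docks plasminogen on the cell surface. Tissue factor (F3) is the membrane receptor of clotting factor VII and starts coagulation, and TFPI blocks the complex of the 2 proteins. In lung epithelium and lung carcinomas the system is known for its part in fibrin turnover, cell migration and invasion.

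The overexpressed microRNA is shown first, because it is what the labels of the arrays differ in. Both mature arms of the MIR130B hairpin are given 5′ to 3′ as RefSeq lists them (GRCh38.p14, chromosome 22, plus strand), with bases 2 to 8, the seed that pairs with target mRNAs, in capitals. They are followed by 3 related microRNAs that carry the same seed as the 3p arm and would pair with the same seed sites.
hsa-miR-130b-3p: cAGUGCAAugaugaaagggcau
hsa-miR-130b-5p: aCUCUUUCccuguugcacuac
hsa-miR-301a-3p: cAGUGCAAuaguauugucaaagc
hsa-miR-301b-3p: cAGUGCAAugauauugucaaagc
hsa-miR-454-3p: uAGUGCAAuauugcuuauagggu
Of the 2545 mature sequences in the table used, 6 had this seed, miR-130b-3p included. MicroRNAs missing from that table were not looked for, so the family may be larger. The hairpin gene's own probe set, MIR130B, stood at 6.66 on the empty-vector array and 12.64 on the miR-130b array, so the arrays differed as labelled. Target sites in the members' mRNAs were not searched, because transcript sequences were not used here.

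All levels are log2 expression values as deposited, and a difference is the miR-130b value minus the empty-vector value, so a difference of -1 is a level 2-fold lower with miR-130b. With 1 array per group there is no replicate error, no test and no p-value, and each value describes these 2 arrays only. As a rough scale for measurement error alone, probe sets of the same gene disagreed in their difference with a pooled SD of 0.16 (356 genes with several probe sets). Probe sets were not checked for shared sequence, so this SD may understate the error. A gene is called kept where its mean level reached the median over named genes, 8.64. There were 9209 kept genes. Their median difference was 0.010, with 4740 higher and 4457 lower, and the central 95% ran from -0.85 to 0.81. Because the RNA came from an Ago2 precipitate, more mRNA in the cells and more of it held by Ago2 cannot be told apart, nor can fewer cells and less RNA per cell.

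As a guide to background, the range of 341 olfactory receptor genes was used, which ended at its 95th percentile, 7.08 on the empty-vector array and 7.17 on the miR-130b array. Of the keratins that mark epithelial cells, KRT7, KRT8 and KRT18 stood at 12.92 or above on both arrays. KRT19 was lower, at 9.85 on the empty-vector array and 10.22 on the miR-130b array. EPCAM, another epithelial marker, lay within the background range. Markers of other cell types were mostly below the filter, with 1 of 5 endothelial, 1 of 5 fibroblast, 2 of 5 leukocyte and 0 of 4 platelet markers kept. On the empty-vector and miR-130b arrays, CLDN5 was at 8.59 and 8.69, COL1A1 at 8.74 and 9.05. CD14 was at 8.89 and 9.53, and CD68 at 11.14 and 9.96. PECAM1, DCN and PTPRC, which define endothelial cells, fibroblasts and leukocytes, lay within the background range on both arrays. Among the kept markers, the junction gene CDH1 differed by -1.12 and the lysosomal gene CD68 by -1.18, and their part in the results was not tested.

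PLAU had the largest difference of the members. It stood at 12.65 on the empty-vector array and 11.38 on the miR-130b array, a difference of -1.28 or 2.42-fold lower, which is 7.83 times the SD between probe sets. Both values lay far above the background range. The difference was the 75th lowest of the 9209 kept genes. Among 1361 kept genes whose mean level lay within 0.5 of that of PLAU, 9 including PLAU were at least as low, and 1.25% of them were at least 2-fold lower. The nearest measured protein-coding genes on the chromosome were CAMK2G, at 0.19, and VCL, which encodes vinculin, at 0.11. The non-coding gene C10orf55, which overlaps the PLAU locus, lay within the background range at 7.03 and 6.34, a difference of -0.68.

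PLAUR, the receptor that holds urokinase on the membrane, was at 10.89 on the empty-vector array and 10.92 on the miR-130b array. Its difference of 0.037 was 0.224 times the SD between probe sets and lay at the 54.1st percentile of kept genes. The receptor and its ligand therefore had unlike values on these arrays, one near the middle of all genes and the other near the lower end.

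PLAT, the tissue-type plasminogen activator, was at 8.94 on the empty-vector array and 9.41 on the miR-130b array. Its difference of 0.46 (1.38-fold higher) was 2.84 times the SD between probe sets and lay at the 92.1st percentile of kept genes. Of the 2702 kept genes at a like level, 255 including PLAT were at least as high. The 2 activators of plasminogen thus differed in opposite directions between the arrays.

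S100A10, the plasminogen-docking partner of annexin A2, was at 12.69 and 12.92, a difference of 0.23, near 1.40 SDs between probe sets. Its partner gene ANXA2, no member of the set, was at 13.49 and 13.52, a difference of 0.033. Both subunits of this receptor were thus high on both arrays and differed little.

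F3 was the 1 measured member below the filter. It was at 7.39 on the empty-vector array and 7.24 on the miR-130b array, just above the background range on each array, and its difference of -0.15 was 0.901 times the SD between probe sets. At such a level array background adds to the signal, so a difference may be understated.

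**Figure D1:**
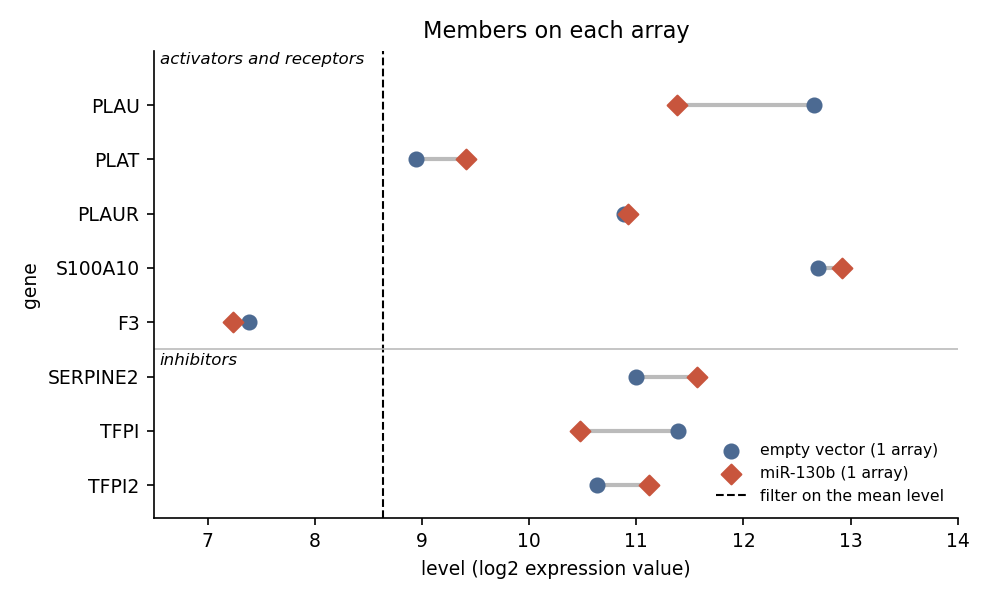
Level of each measured member (log2 expression value, horizontal axis) on the empty-vector array (circles) and the miR-130b array (diamonds), 1 array per group, so there are no error bars. Levels are to be compared within a gene: PLAU and TFPI lie to the left with miR-130b, at 11.38 and 10.47, while PLAT, SERPINE2 and TFPI2 lie to the right, and F3 is left of the dashed filter line at 8.64.

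Among the inhibitors, SERPINE2 and TFPI2 were higher with miR-130b and TFPI was lower. SERPINE2, or protease nexin-1, traps urokinase, thrombin and plasmin in inactive complexes. It stood at 10.997 on the empty-vector array and 11.57 on the miR-130b array, a difference of 0.57 (1.49-fold higher), at the 94.8th percentile of kept genes. Of 2116 kept genes at a like level, 93 including SERPINE2 were at least as high. It was the largest increase among the members.

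TFPI, the Kunitz-type inhibitor of factor Xa and of tissue factor with factor VIIa, was at 11.39 on the empty-vector array and 10.47 on the miR-130b array. The difference was -0.91 (1.88-fold lower), 5.60 times the SD between probe sets and at the 2.06th percentile of kept genes. Of 2365 kept genes at a like level, 45 including TFPI were at least as low. Of its neighbours on the chromosome, GULP1 was at -0.31, and CALCRL lay within the background range at 5.80 and 5.30.

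TFPI2, a Kunitz-type relative that inhibits plasmin and other matrix-degrading proteases, was at 10.63 and 11.12. Its difference was 0.49 (1.40-fold higher), at the 92.7th percentile of kept genes, where 182 of 2407 genes at a like level were at least as high. The Kunitz relatives thus had differences of opposite sign, and the smaller of them, that of TFPI2, was 2.97 times the SD between probe sets.

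Set side by side, the activators and receptors had a median difference of 0.037 over 5 genes and the inhibitors one of 0.49 over 3. The first median minus the second was -0.45, and neither role had values of 1 sign. The medians were the values of PLAUR and TFPI2, so the contrast did not depend on the size of the PLAU or TFPI differences. Of the activators and receptors PLAT and S100A10 were higher, PLAU and F3 lower and PLAUR close to 0, and of the inhibitors 2 were higher and 1 lower. The contrast was -0.19 with means in place of medians. In the plasminogen arm alone, which leaves out F3, TFPI and TFPI2, it was -0.44, with SERPINE2 as the 1 inhibitor.

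**Figure D2:**
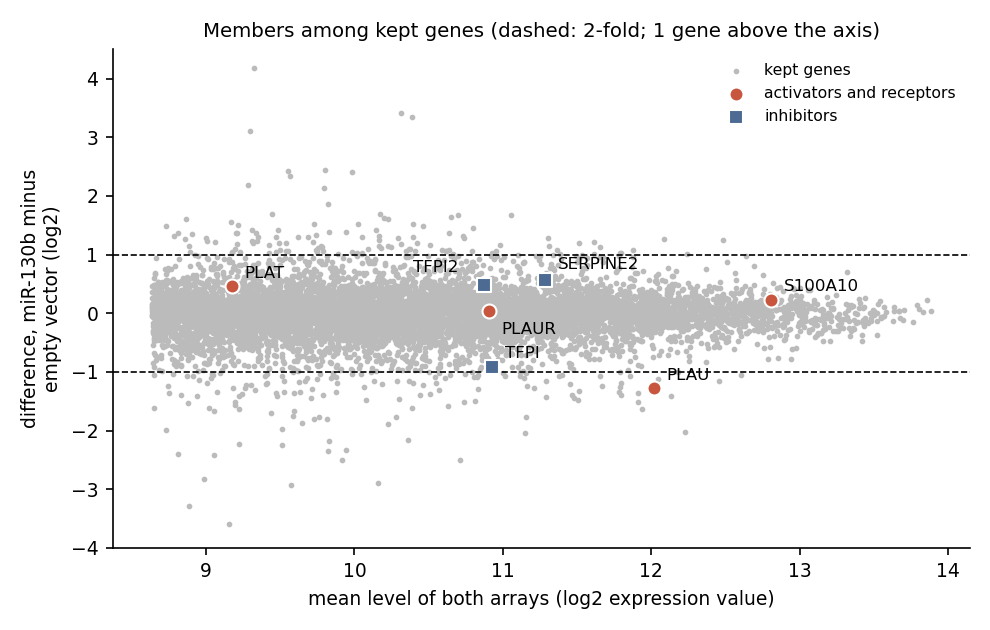
Difference between the arrays (miR-130b minus empty vector, log2) against the mean level of both arrays for the 9209 kept genes (grey points), with the 7 kept members as coloured circles (activators and receptors) and squares (inhibitors). PLAU is the 1 member beyond the dashed 2-fold lines, at -1.28, and TFPI lies just inside at -0.91.

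Among the 7 kept members, 1 was at least 2-fold lower with miR-130b, where 1.60% of all kept genes were, and 0 were at least 2-fold higher, where 1.32% were. At a threshold of 1.5-fold, PLAU and TFPI made 2 lower, beside 5.87% of kept genes, and 0 were higher, beside 5.04%. With so few members these counts describe PLAU and TFPI and say nothing of the set as a whole. The median difference of the 7 was 0.23, beside 0.010 for all kept genes.

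The genes whose difference was nearest to that of PLAU over these 2 arrays were MBOAT1 (-1.28, or 9.82 against 8.55), ASNS, asparagine synthetase (-1.28, or 11.85 against 10.57), WDR5B (-1.27) and USP53 (-1.28). They were chosen only by the gap between log2 differences, which was 0.0082 or less.

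The DNA before the start of 3 members is shown to set the member with the largest decrease beside the Kunitz relatives, which differed in opposite directions. Each line gives the 250 bases before a RefSeq start (GRCh38.p14), 5′ to 3′ on the gene's strand, in lower case. Capitals mark matches on either strand to the AP-1 motif TGANTCA, the GC box GGGCGG or the TATA box TATAAA. PLAU (chr10:73910882-73911131, plus strand) has 2 starts in the table and the downstream one is printed. TFPI lies at chr2:187554436-187554685 and TFPI2 at chr7:93890754-93891003, both on the minus strand.
PLAU: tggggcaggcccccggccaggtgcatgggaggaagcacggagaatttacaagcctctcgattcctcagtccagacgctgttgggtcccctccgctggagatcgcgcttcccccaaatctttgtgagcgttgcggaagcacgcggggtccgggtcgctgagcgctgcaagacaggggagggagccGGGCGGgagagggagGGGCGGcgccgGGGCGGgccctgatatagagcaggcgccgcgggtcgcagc
TFPI: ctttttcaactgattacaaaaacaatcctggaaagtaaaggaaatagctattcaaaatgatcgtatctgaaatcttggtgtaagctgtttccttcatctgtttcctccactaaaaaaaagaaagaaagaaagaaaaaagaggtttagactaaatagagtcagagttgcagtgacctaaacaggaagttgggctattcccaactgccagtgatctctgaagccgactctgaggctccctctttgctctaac
TFPI2: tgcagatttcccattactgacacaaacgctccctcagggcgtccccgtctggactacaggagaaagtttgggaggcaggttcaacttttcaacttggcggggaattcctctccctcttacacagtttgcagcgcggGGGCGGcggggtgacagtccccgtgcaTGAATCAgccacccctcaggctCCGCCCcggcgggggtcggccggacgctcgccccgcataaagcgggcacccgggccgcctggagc
The PLAU window printed held 3 GC boxes, and G and C made up 68.8% of its bases, whereas the window at its other start was 46.8% G and C and held none of the 3 motifs. TFPI2 was at 64.4%, with 2 GC boxes and 1 AP-1 match, whereas the TFPI window was 38.4% G and C and held none of the 3 motifs. Of 35116 windows of this length, 42.6% held the GC box, 6.57% the AP-1 motif and 10.7% the TATA box, so GC boxes are common. The windows of the Kunitz relatives were unlike in G and C content. Of the 2 PLAU windows, the printed one was nearer in G and C content to that of TFPI2. The other was nearer to that of TFPI. A link between these sequences and the differences was not tested. Of the other members searched, F3 held 4 GC boxes, 2 AP-1 matches and 1 TATA box, PLAUR 1 AP-1 match, S100A10 1 GC box, and the windows at the 2 starts of SERPINE2 1 and 2 GC boxes. PLAT was not searched. A match is a run of letters and not a measured binding site.

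The other genes of the plasminogen system were mostly low or little different. Of 19 listed, 18 were measured and 7 kept. The kept genes had a median difference of 0.033, 4 being higher and 3 lower. SERPINB8, a serpin of the same clade as SERPINB2, was at 10.43 on the empty-vector array and 8.99 on the miR-130b array, 2.72-fold lower. It was the 1 kept gene of the list past 2-fold, where 1.60% of all kept genes were at least 2-fold lower. SRPX2, a secreted ligand of the urokinase receptor, was at 10.13 and 9.35, a difference of -0.78. The largest kept increases were those of MRC2, the collagen-internalising partner of the urokinase receptor, at 0.33 (10.16 against 10.49), and of ENO1, an enolase that also binds plasminogen, at 0.064. LRP1, the endocytic receptor that clears protease-serpin complexes, was at -0.12, and VTN, which encodes vitronectin, a matrix ligand of the urokinase receptor, at 0.056. PLG, plasminogen itself, lay within the background range at 6.34 and 6.37, so the substrate of both activators was near background in this precipitate. SERPINB6 was not analysed here.

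On the coagulation side, the clotting factors downstream of tissue factor were low, apart from FGA, FGB and F7 on the empty-vector array. Of 15 listed and measured, 3 were kept (FGA, GGCX and VKORC1), with a median of 0.093. F7, which encodes the factor VII that tissue factor binds, was at 9.03 on the empty-vector array and 7.93 on the miR-130b array, 2.14-fold lower, with a mean level just under the filter. F10, its neighbour on the chromosome, was at 7.51 and 7.60. The receptor F3 thus differed by -0.15, its ligand F7 by -1.10 and their inhibitor TFPI by -0.91.

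Fibrinogen, the substrate that clotting lays down and plasmin removes, had the largest differences of any list. FGA was at 11.04 on the empty-vector array and 8.11 on the miR-130b array, 7.62-fold lower. FGB, its neighbour, was at 9.42 and 7.15, a difference of -2.27 that is open to understatement because the lower value lies within the background range. FGG, beside FGA in the same cluster, was at 5.41 and 4.64, within that range on both arrays, and no fold is given. GGCX and VKORC1, the enzymes of the vitamin K cycle that modifies clotting factors, were at 0.12 and 0.093. F13A1, the fibrin cross-linking enzyme, was at 6.83 and 7.56 and below the filter.

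The anticoagulant list had 10 measured genes, of which 3 were kept, with 2 higher and 1 lower and a median of 0.010. THBD, thrombomodulin, which turns thrombin from clotting to the activation of protein C, was at 9.69 on the empty-vector array and 10.55 on the miR-130b array, 1.81-fold higher and at the 97.8th percentile of kept genes. PROCR, the protein C receptor, was at -0.015, and PROS1, which encodes protein S, at 0.010 over its 2 probe sets. THBD thus differed upwards where its partner receptor hardly differed. Of the receptors through which these proteases signal, F2R, the main thrombin receptor, was at 11.19 and 11.27, a difference of 0.074, and F2RL2 at -0.19. F2RL3 was below the filter, at 7.62 and 7.76, and F2RL1 was not analysed here.

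**Figure D3:**
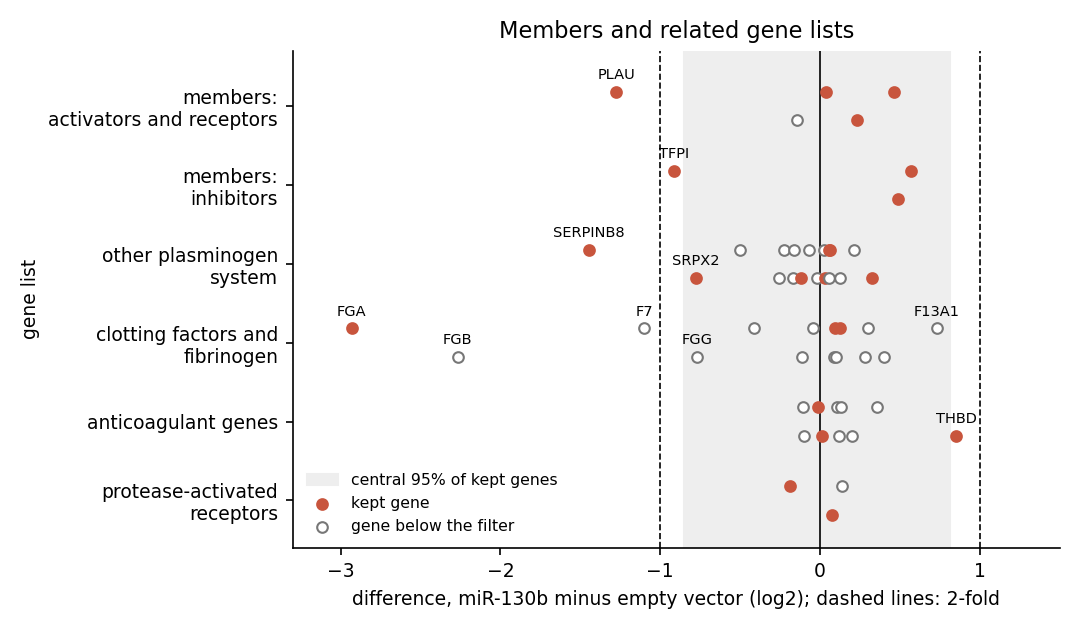
Difference between the arrays (miR-130b minus empty vector, log2, horizontal axis) for each measured gene of the members and of 4 related lists, with kept genes filled and genes below the filter open. The grey band holds the central 95% of kept genes, from -0.85 to 0.81. PLAU, SERPINB8 and FGA (kept) and F7 and FGB (below the filter) lie left of the dashed 2-fold line at -1. No gene lies right of the one at 1. Of all 18417 named genes, 252 were at least 2-fold lower and 196 at least 2-fold higher. Among all kept genes, 1.60% were at least 2-fold lower and 1.32% at least 2-fold higher.

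The members' differences depended little on how the arrays were scaled. PLAU lay between -1.33 and -1.26 when the median difference was subtracted or the arrays were normalized anew, and TFPI between -0.97 and -0.90. SERPINE2, TFPI2, PLAT and S100A10 stayed above 0, and F3 lay between -0.20 and -0.15. PLAUR went from 0.037 to -0.016 when the median difference of all named genes, 0.053, was subtracted, so no direction is given for it.

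**Figure D4:**
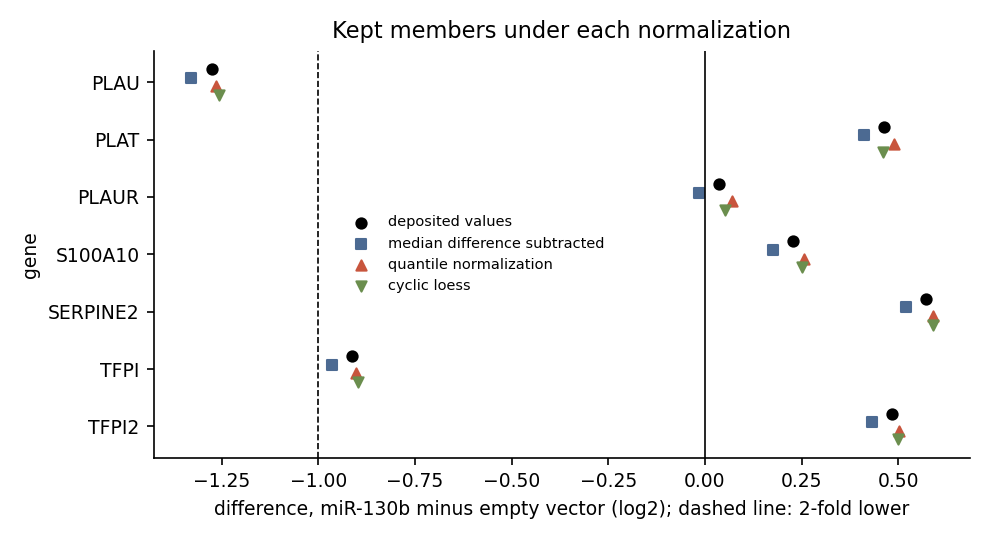
Difference of each kept member (miR-130b minus empty vector, log2, horizontal axis) in the deposited values and after 3 other scalings. Symbols of a gene lie close together, with PLAU left of the dashed 2-fold line in all of them and PLAUR on both sides of 0.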

How the data were processed

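The authors deposited a table of log2 expression values for 33297 probe sets on each of 2 arrays. The unit was read from the values, which ran from 1.95 to 14.2, while no software, background correction or normalization step is named in the labels. Both columns had a median of 7.77, so overall differences in RNA yield are not kept. No detection calls were used here. Of the 21214 probe sets in the platform annotation, 19460 had 1 symbol, 1754 with several were left out, and 12083 others were unnamed here. Symbols were updated by Entrez identifier (19429 matched) and probe sets averaged per gene. No test was possible with 1 array per group. Precision is limited by the number of arrays. Alternatives were other filters, thresholds, scalings, the brightest probe set and means. The members and lists were chosen with earlier results of these data known. The rule for names covered all members, MIR130B, and in each list the 2 largest kept differences each way and every gene past 2-fold. Other genes (ANXA2, LRP1, VTN, PLG, F10, FGG, F13A1, F2RL3, the markers and chromosome neighbours) were added after their values were seen. Averaging and counting were tested on simulated data. Python 3.11.15, pandas 2.3.3, R 4.3.3 and limma 3.58.1 were used.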

Additional observations from a re-analysis of the deposited data

How the results depend on the processing

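No paired analysis was possible because each group has 1 array. Of 85 values under the alternatives, 81 lay within the SD between probe sets (0.16) of the main value and 4 did not. These 4 came from means in place of medians: -0.19 for activators and receptors minus inhibitors, -0.27 for the other plasminogen genes, -0.90 for clotting factors and fibrinogen, and 0.28 for anticoagulant genes. Each list mean includes 1 or 2 genes far from the rest (SERPINB8 and SRPX2, FGA, THBD). The list medians lie near 0. The medians of the anticoagulant and other plasminogen genes were -0.042 and -0.020 with the median difference subtracted, the latter was -0.045 without a filter, and that of the protease-activated receptors was 0.074 under both other filters. The clotting list's median stayed above 0, from 0.040 to 0.11, but its mean did not. At 1.5-fold, 2 members were lower. The contrast of roles lay between -0.49 and -0.19 over 11 alternatives, 3 of them added after the values were seen, among them -0.35 without PLAU and -0.49 without TFPI. The brightest-probe-set setting could not move any member or the contrast of roles, since each member had 1 probe set. A filter could not move a member's own difference. Neither the setting without a filter nor subtraction of the median difference could move the contrast of roles. That subtraction shifts every gene by 0.053, less than the SD, so it could not take a member or a list median beyond the SD. These outcomes, fixed in advance, are counted among the 81. Low signal limits F3, F7, FGB and the genes below the filter.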

Other observations

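Relatives of the members by symbol were also measured, a grouping made after the values were seen. Of 31 SERPIN genes, 5 were kept, with 2 higher and 3 lower. SERPINE2 was the highest of them at 0.57 and SERPINB8 the lowest at -1.45. SERPINB1, an inhibitor of neutrophil proteases, was at -0.43 (11.89 against 11.46), SERPINB9, which inhibits granzyme B, at -0.18, and SERPINH1, the collagen chaperone HSP47, at 0.030. Below the filter, SERPINF1, which encodes the secreted factor PEDF, was at 8.70 on the empty-vector array and 7.25 on the miR-130b array, 2.72-fold lower.

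The largest difference among the relatives was that of LYPD1, which encodes a membrane-anchored protein with the fold of the urokinase receptor. It was at 8.19 on the empty-vector array and 10.38 on the miR-130b array, 4.56-fold higher. Of 8 genes measured (7 LYPD genes and CD59), 2 were kept. LYPD1 was the 1 kept gene of these at least 2-fold higher, where 1.32% of all kept genes were. CD59, a membrane-anchored complement inhibitor of the same fold, was at 10.90 on the empty-vector array and 11.74 on the miR-130b array, 1.79-fold higher. PLAUR itself differed by 0.037. SPINT2, a Kunitz-type inhibitor of membrane serine proteases, was at 11.97 and 11.40, a difference of -0.57, on the side of TFPI and opposite to TFPI2. None of the 16 measured membrane serine protease genes (the TMPRSS genes, ST14 and HPN) was kept.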
